A study of Saccharomyces cerevisiae x Saccharomyces kudriavzevii and Saccharomyces cerevisiae with 12 samples.

Results

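The 10 genes described here encode the enzymes that build chorismate and turn it into the precursors of phenylalanine, tyrosine and tryptophan in yeast. They are ARO1 (YDR127W), ARO2 (YGL148W), ARO3 (YDR035W), ARO4 (YBR249C), ARO7 (YPR060C), TRP1 (YDR007W), TRP2 (YER090W), TRP3 (YKL211C), TRP4 (YDR354W) and TRP5 (YGL026C). They were chosen by their place in the pathway and not by a cut-off on measured values, but with earlier results of these data known. All 10 were found among the 6178 ORFs of the array. From the systematic names, ARO1, ARO3, TRP1 and TRP4 lie on chromosome IV, ARO2 and TRP5 on chromosome VII, ARO4 on II, ARO7 on XVI, TRP2 on V and TRP3 on XI. The genes were measured in 2 wine yeasts, Lalvin W27 and VIN7, both hybrids of Saccharomyces cerevisiae and S. kudriavzevii, each set against the S. cerevisiae wine strain Lalvin T73. All cultures fermented Tempranillo must, at 12 or 28 °C, and cells were taken when 50% of the sugars had been consumed, at the start of the stationary phase. There were 3 arrays, replicates A, B and C, for each hybrid at each temperature.

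The study describes both hybrids as allotriploid, diploid for S. cerevisiae and haploid for S. kudriavzevii. VIN7 is almost perfectly so, and W27 has chimeric chromosomes. Every listed ORF is of S. cerevisiae. A ratio therefore joins the alleles of both species where a hybrid carries both. The study chose heterologous hybridization conditions so that S. kudriavzevii cDNA would bind, but how well it bound was not assessed here. For ARO1 the study gives only S. cerevisiae alleles in W27 and alleles of both species in VIN7. The hybrids thus differ in allele composition at ARO1. In the bulk RNA of a culture, fewer cells with a transcript and less transcript per cell cannot be told apart. Hybrids were labelled with Cy3 and T73 with Cy5 on all 12 arrays, so dye and strain cannot be told apart either. The direction of the deposited ratios was taken as T73 over hybrid, which is likely given the dyes and the direction that the study's text gives for ARO1 and for a pair of other ORFs. All values below are therefore log2 ratios turned to hybrid over T73, where 1 means a level 2-fold higher in the hybrid. As ARO1 was used in choosing this direction, its sign below is not independent of that choice. By the labels these are biological replicates, but the methods give 2 independent fermentations and 3 hybridizations, so p-values may in part measure technical spread. T73 is also part of every ratio. The arrays of both hybrids at a temperature may thus share variation of T73, while the tests treated them as independent. One label field of the W27 arrays at 28 °C reads 12 °C, while their titles give 28 °C, which was used.

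As background, aromatic amino acids start from phosphoenolpyruvate and erythrose-4-phosphate, a sugar of the pentose phosphate pathway. The DAHP synthases Aro3 and Aro4 join them, the pentafunctional enzyme Aro1 carries the product through the shikimate steps, and Aro2 makes chorismate. Aro7 leads chorismate towards phenylalanine and tyrosine, and the Trp enzymes lead it to tryptophan. In wine yeast the branch to phenylalanine also matters for flavour, since phenylalanine is the source of the rose-scented alcohol 2-phenylethanol.

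An array held values for 5815 to 6178 ORFs, and each of the 10 genes had a value on all 12. The SD of the log2 ratios over all ORFs ran from 0.60 to 1.59 between arrays. Replicate C of VIN7 at 28 °C correlated negatively across ORFs with 5 of the 6 arrays at 12 °C, most clearly with 4 of them (Pearson r from -0.38 to -0.70), so that its direction was not settled. Values for VIN7 and for both hybrids at 28 °C include this array, and the main ones are also given with its sign turned.

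At 12 °C ARO1 was the one gene of the 10 that passed the test, against 10.4% of all ORFs, with a log2 ratio of 1.52 over both hybrids. This call was lost when certain single arrays were left out, as given below. ARO1 and TRP4 lay above 0 on all 6 arrays. ARO3, TRP2, TRP3 and TRP5 lay below 0 on all 6 arrays, with mean log2 ratios between -0.75 and -1.15 that did not pass. At 28 °C none of these genes kept 1 sign on all 6 arrays. For comparison, 11.8% of the ORFs with 6 values lay below 0 on all 6 arrays at 12 °C and 10.5% above 0.

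**Figure D1:**
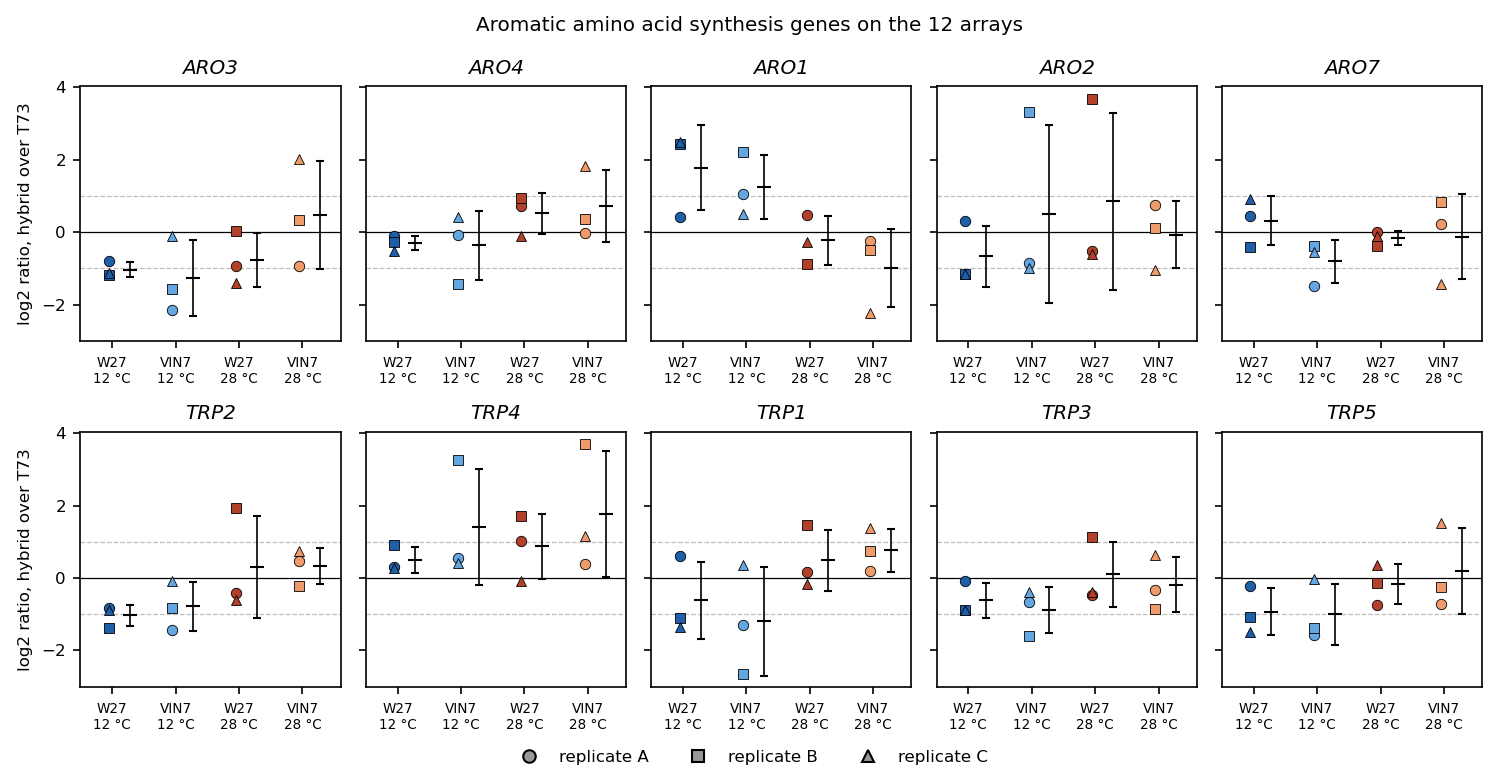
Log2 ratio of hybrid over T73 (vertical axis) for each of the 10 genes on each array, by hybrid and temperature. Circles, squares and triangles are replicates A, B and C, the bars beside them give mean ± SD (n = 3), and dashed lines mark 2-fold. ARO1 runs from 0.42 to 2.49 at 12 °C and from -2.22 to 0.48 at 28 °C, whereas ARO3 and TRP5 lie below 0 on all arrays at 12 °C.

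ARO3 and ARO4 encode the isozymes of DAHP synthase, the entry step, which are inhibited by phenylalanine (Aro3) and by tyrosine (Aro4). The log2 ratio of ARO3 in W27 at 12 °C was -0.79, -1.19 and -1.12 on replicates A, B and C. In VIN7 at 12 °C it was -2.14, -1.57 and -0.10. All 6 values lay below 0, with replicate C of VIN7 nearest to it. The W27 mean was -1.03 ± 0.22 (SD, n = 3), the VIN7 mean was -1.27 ± 1.05 (SD, n = 3), and over both hybrids the limma estimate of -1.15 (SE 0.38) had an adjusted p of 0.0663. At 28 °C ARO3 was -0.94, 0.04 and -1.41 in W27 and -0.95, 0.33 and 2.03 in VIN7, so that both signs occurred in each hybrid. ARO4 stayed nearer to 0 at 12 °C, with -0.12, -0.27 and -0.51 in W27 and -0.09, -1.44 and 0.42 in VIN7. At 28 °C it was 0.73, 0.95 and -0.11 in W27 and -0.03, 0.35 and 1.84 in VIN7. The isozyme genes thus ranked apart in W27 at 12 °C, where the median of ARO3 lay at percentile 9.32 of all ORFs and that of ARO4 at percentile 38.0.

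ARO1, whose product catalyses 5 consecutive steps to the substrate of the next enzyme, had the highest median of the 10 genes in W27 at 12 °C. Its log2 ratio there was 0.42, 2.45 and 2.49, a median 5.45-fold above T73 that became 2.74-fold without replicate B and 2.70-fold without C. On replicate A TRP1 (0.61) and ARO7 (0.46) were higher. In VIN7 at 12 °C it was 1.05, 2.21 and 0.49, a median 2.07-fold above T73. All 6 values lay above 0, and the ranges of both hybrids overlapped. These medians stood at percentiles 95.8 and 80.6 of all ORFs. At 28 °C ARO1 was 0.48, -0.88 and -0.27 in W27, and -0.25, -0.48 and -2.22 in VIN7. Of these 6 values 5 lay below 0, and the highest, replicate A of W27, overlapped with the lowest value at 12 °C. With replicate C of VIN7 turned, 4 of the 6 lay below 0 and that array was the highest, at 2.22. Ordered by their means, the groups ran from W27 at 12 °C (1.79 ± 1.18, SD, n = 3) through VIN7 at 12 °C (1.25 ± 0.88) and W27 at 28 °C (-0.22 ± 0.68) to VIN7 at 28 °C (-0.98 ± 1.08). Of the neighbours in this order, VIN7 at 12 °C and W27 at 28 °C did not overlap, and the other pairs did. When replicate C of VIN7 at 28 °C had its sign turned, the mean of that group became 0.50 ± 1.496.

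In limma, a moderated linear model fitted over all ORFs with Benjamini-Hochberg adjustment, ARO1 was above T73 over both hybrids at 12 °C by 1.52 (SE 0.37, 95% CI 0.72 to 2.32, adjusted p = 0.0363). Within each hybrid at 12 °C it did not pass, with adjusted p of 0.315 in W27 and 0.201 in VIN7, and at 28 °C the adjusted p were 0.919 and 0.409. The call at 12 °C was lost without replicate B (adjusted p = 0.128) or C (0.149) of W27 and without replicate A (0.128) or B (0.128) of VIN7, with estimates between 1.28 and 1.57. It was also lost after a trend along the order of the systematic names was removed, where the estimate fell to 0.81 (adjusted p = 0.103) and the median in VIN7 at 12 °C to 0.003.

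ARO2 encodes chorismate synthase, which closes the shared part of the pathway. Its log2 ratio at 12 °C was 0.30, -1.16 and -1.14 in W27 and -0.86, 3.34 and -0.98 in VIN7. At 28 °C it was -0.51, 3.69 and -0.60 in W27 and 0.76, 0.10 and -1.06 in VIN7. In both VIN7 at 12 °C and W27 at 28 °C, replicate B stood far above the other arrays, and the SDs of 2.46 and 2.45 were the largest of the 10 genes. ARO7 encodes chorismate mutase, the first step towards phenylalanine and tyrosine. It was 0.46, -0.41 and 0.91 in W27 at 12 °C and -1.48, -0.38 and -0.56 in VIN7 at 12 °C. At 28 °C it lay within -0.38 and 0.00 in W27 and within -1.43 and 0.83 in VIN7. ARO7 was below 0 on all VIN7 arrays at 12 °C, but the hybrids overlapped, and the difference VIN7 minus W27 of -1.13 (SE 0.64, 95% CI -2.49 to 0.24) had an adjusted p of 1.00 in limma.

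Of the tryptophan branch, TRP2 and TRP3 encode the subunits of anthranilate synthase, which draws chorismate into this branch, and Trp3 also makes indole-glycerol phosphate. TRP2 was -0.84, -1.37 and -0.89 in W27 at 12 °C and -1.44, -0.84 and -0.07 in VIN7 at 12 °C. TRP3 was -0.07, -0.89 and -0.89 in W27 and -0.65, -1.59 and -0.39 in VIN7 at 12 °C. Both subunit genes were thus below 0 on all 6 arrays, with limma estimates over both hybrids of -0.91 for TRP2 (SE 0.34, adjusted p = 0.0933) and -0.75 for TRP3 (SE 0.31, adjusted p = 0.120). At 28 °C TRP2 was -0.41, 1.94 and -0.59 in W27 and 0.48, -0.23 and 0.74 in VIN7, and TRP3 was -0.48, 1.15 and -0.37 in W27 and -0.32, -0.87 and 0.63 in VIN7. Replicate B of W27 was the high array for both. Over the 12 arrays TRP2 and TRP3 were the most similar pair among the 10 genes, with a root mean square difference of 0.57, followed by ARO3 and TRP5 with 0.62. This is a description over arrays that share their overall shifts.

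TRP4, for anthranilate phosphoribosyltransferase, was the one tryptophan gene above 0 on all 6 arrays at 12 °C. It was 0.31, 0.92 and 0.28 in W27 and 0.56, 3.26 and 0.43 in VIN7 at 12 °C. At 28 °C it was 1.01, 1.71 and -0.08 in W27 and 0.40, 3.72 and 1.17 in VIN7. Of its 12 values 11 lay above 0 (10 with replicate C of VIN7 at 28 °C turned), and replicate B was the highest in every group. Its estimate over both hybrids was 0.96 at 12 °C (SE 0.45, adjusted p = 0.164, limma) and 1.32 at 28 °C (SE 0.45, adjusted p = 0.254), the latter 0.93 (adjusted p = 0.435) with replicate C of VIN7 turned.

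TRP1, for phosphoribosylanthranilate isomerase, was 0.61, -1.10 and -1.36 in W27 and -1.29, -2.64 and 0.36 in VIN7 at 12 °C, with 1 array of each hybrid above 0. At 28 °C it was 0.18, 1.45 and -0.15 in W27 and 0.20, 0.74 and 1.39 in VIN7. Its estimate over both hybrids at 12 °C was -0.90 (SE 0.40, adjusted p = 0.136, limma). TRP5 encodes tryptophan synthase, the last step of the branch. It was -0.22, -1.08 and -1.48 in W27 and -1.58, -1.39 and -0.03 in VIN7 at 12 °C, below 0 on all 6 arrays. At 28 °C it was -0.73, -0.13 and 0.36 in W27 and -0.73, -0.23 and 1.53 in VIN7. Both signs occurred in each hybrid, but with replicate C turned all VIN7 values lay below 0. At 12 °C the W27 mean was -0.93 ± 0.65 (SD, n = 3), the VIN7 mean was -1.001 ± 0.84 (SD, n = 3), and the estimate over both was -0.96 (SE 0.34, adjusted p = 0.0796, limma).

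**Figure D2:**
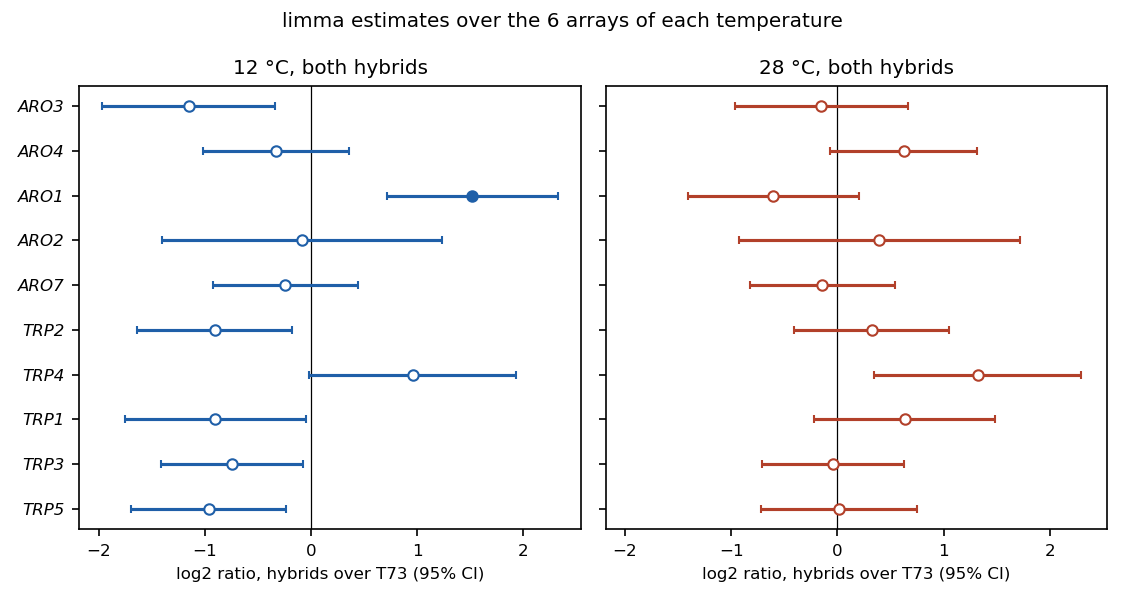
Limma estimate of the log2 ratio of hybrids over T73 (horizontal axis) with its 95% confidence interval for each gene, over the 6 arrays at 12 °C (left) and at 28 °C (right). A filled point has an adjusted p under 0.05, which holds for ARO1 at 12 °C (1.52) alone, where 10.4% of all ORFs passed. At 12 °C 8 of the 10 estimates lie below 0, and at 28 °C 4 of 10 (3 with replicate C of VIN7 turned). Over all ORFs the median estimate was -0.01 at 12 °C and 0.13 at 28 °C, where 3778 estimates lay above 0 and 2399 below.

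Read against all ORFs, the number of these genes called by limma after adjustment was not above the background in the main fit, with all 12 arrays weighted equally. Over both hybrids at 12 °C 1 of the 10 was called, against 10.4% of 6164 ORFs. At an unadjusted p under 0.05, 6 of the 10 passed there (ARO1 above T73, and ARO3, TRP1, TRP2, TRP3 and TRP5 below), against 31.7% of all ORFs. Of the other comparisons with T73, none called any of the 10 genes, where the background was 0% for W27 at 12 °C, 0.551% for VIN7 at 12 °C, 0.0324% for W27 at 28 °C, 0.0162% for VIN7 at 28 °C and 0.179% for both hybrids at 28 °C. Before adjustment 1, 3, 0, 1 and 1 of the 10 genes passed 0.05 in these 5 comparisons, against 14.7%, 21%, 10%, 13.9% and 14.2% of all ORFs. The number called over both hybrids at 12 °C depended on the weighting of the arrays. With weights estimated by limma, 6 of the 10 were called, against 32.2% of all ORFs in that fit, namely ARO1 (adjusted p = 0.00476), ARO3 (0.00996), TRP5 (0.0148), TRP2 (0.0151), TRP1 (0.0398) and TRP3 (0.0409). Without replicate C of VIN7 at 12 °C 4 were called (ARO1, ARO3, TRP1 and TRP5), against 16% of all ORFs, and without replicate C of VIN7 at 28 °C 3 (ARO1, ARO3 and TRP5), against 16.8%. With only the 6 arrays compared in the fit 2 were called (ARO1 and ARO3), against 15.4%. None was called without each of the arrays named for ARO1 above, where at most 0.504% of all ORFs passed.

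The study counted a gene as changed where its median over the arrays passed 2-fold, which involves no test. By this rule 1 of the 10 genes was up in W27 at 12 °C (ARO1), against 10.6% of all ORFs, and 4 were down (ARO2, ARO3, TRP1 and TRP5), against 11.2%. In VIN7 at 12 °C 1 was up (ARO1), against 13.9%, and 3 were down (ARO3, TRP1 and TRP5), against 11.9%. ARO3, TRP1 and TRP5 were thus down in both hybrids, although TRP1 had 1 array above 0 in each. At 28 °C the up gene was TRP4 in W27, against 7.76% of all ORFs, and again TRP4 in VIN7, against 11.3%. No gene was down at 28 °C, against 6.08% in W27 and 5.48% in VIN7. The study's text gives ARO1 as down in VIN7 at 28 °C, where its median here was -0.48. With replicate C turned in VIN7 at 28 °C, none of the 10 was up or down in that group, against 7.12% and 5.9% of all ORFs. The median over the 10 gene medians was -0.89 in W27 and -0.74 in VIN7 at 12 °C, where the median of all ORFs was -0.06 and 0.003. At 28 °C it was -0.20 in W27 and 0.28 in VIN7 (turned, -0.13), against 0.08 and 0.10 for all ORFs (turned, 0.04).

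These counts moved when single arrays were left out. The genes down in W27 at 12 °C numbered 0 when replicate B was left out and 1 when C was. For VIN7 at this temperature 3 were up without replicate A or C and 0 without B, and 1 was down without A and 5 without C. At 28 °C no gene was up without replicate B in W27, nor without B in VIN7, while 2 were up in W27 without C and 4 in VIN7 without A. The shares of all ORFs with an array left out were not computed, so these counts have no background beside them.

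The temperatures were compared for each gene by an exact permutation test (two-sided) of the mean at 12 °C minus that at 28 °C, with arrays exchanged within each hybrid. All 400 arrangements were enumerated, and the smallest p they allow is 0.005. Each temperature had its own T73 cultures, so this is a difference of ratios and includes any response of T73 itself. Of the 10 genes tested, ARO1 was higher by 2.12 at 12 °C (exact permutation p = 0.01) and TRP2 lower, with a difference of -1.23 (exact permutation p = 0.01). TRP1 differed by -1.53 (exact permutation p = 0.04) and ARO4 by -0.95 (exact permutation p = 0.045), also with lower ratios at 12 °C. For the other 6 genes the exact permutation p lay between 0.06 for TRP5 and 0.825 for ARO7. With VIN7 arrays exchanged only within a replicate letter (160 arrangements, smallest p 0.0125), TRP5 passed as well, with -0.98 (exact permutation p = 0.025), but not with replicate C of VIN7 at 28 °C turned (exact permutation p = 0.3). The pairing by letter was itself taken from these data. In this paired form ARO1, TRP2, TRP1 and ARO4 had exact permutation p of 0.025, 0.0125, 0.0375 and 0.0125, and with the array turned none of the 4 passed (0.1, 0.0875, 0.2 and 0.537). With replicate C turned in VIN7 at 28 °C, ARO1 differed by 1.38 (exact permutation p = 0.075), TRP1 by -1.07 (exact permutation p = 0.13) and ARO4 by -0.34 (exact permutation p = 0.475), while TRP2 kept -0.98 (exact permutation p = 0.04). Without that array ARO1 differed by 1.80 (exact permutation p = 0.02), TRP2 by -1.14 (exact permutation p = 0.025), TRP1 by -1.38 (exact permutation p = 0.06) and ARO4 by -0.71 (exact permutation p = 0.08). ARO4 also no longer passed without any 1 of 9 arrays (all but replicate C of VIN7 at 12 °C, C of W27 and A of VIN7 at 28 °C), and TRP1 without any 1 of 7 (replicates B and C of W27 and A and B of VIN7 at 12 °C, B of W27 and B and C of VIN7 at 28 °C).

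These p-values are not adjusted over the ORFs. In limma, which is, no ORF passed for 12 °C minus 28 °C in W27 (0%) or in VIN7 (0%), where 1 and 3 of the 10 genes passed before adjustment, against 5.67% and 19.7% of all ORFs. For ARO1 the difference was 2.01 in W27 (SE 0.75, adjusted p = 0.752) and 2.23 in VIN7 (SE 0.75, adjusted p = 0.178). The 3 genes in VIN7 were ARO1, TRP1 (-1.96, adjusted p = 0.214) and ARO3 (-1.74, adjusted p = 0.233). With replicate C turned in VIN7 at 28 °C, these VIN7 differences became 0.75, -1.04 and -0.39.

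The hybrids were not separated from each other by any of the 10 genes. VIN7 minus W27 called none of them at 12 or at 28 °C in limma, where the background was 0% at both, and none passed 0.05 before adjustment, against 2.22% and 8.99% of all ORFs. For ARO1 the difference was -0.53 at 12 °C (95% CI -2.14 to 1.07) and -0.76 at 28 °C (95% CI -2.37 to 0.85, turned 0.72), so that the first interval includes differences above 2-fold in either direction and the second includes levels over 2-fold higher in W27. The largest difference at 28 °C was that of ARO3, at 1.24 (95% CI -0.39 to 2.87), which became -0.11 with replicate C of VIN7 turned.

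The neighbours of each gene, up to 20 ORFs nearest in the order of systematic names, show how far it stood out of its surroundings. ARO1 in W27 at 12 °C lay above 19 of its 20 neighbours, whose median was 0.39. In VIN7 at 12 °C it lay above 16 of 20, with a neighbour median of 0.42. At 28 °C it lay above 3 of 20 in W27 and 1 of 20 in VIN7, where the neighbours had medians of 0.54 and 0.56. With replicate C of VIN7 turned it still lay above 1 of 20, with a neighbour median of 0.55. The surroundings of ARO1 were thus above 0 in every group, and ARO1 was above them at 12 °C and below most of them at 28 °C. ARO3 at 12 °C was above only 1 of 20 neighbours in W27 and 2 of 20 in VIN7, and TRP5 above 2 of 20 and 1 of 20. ARO2 in W27 at 12 °C had a neighbour median of -0.75, near its own -1.14, and 8 of its 20 neighbours were themselves 2-fold down. TRP4 at 28 °C lay above 18 of 20 neighbours in W27 and all 19 with a value in VIN7 (13 of 19 turned). The part of local shifts in these results was not tested beyond the removal of the trend.

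**Figure D3:**
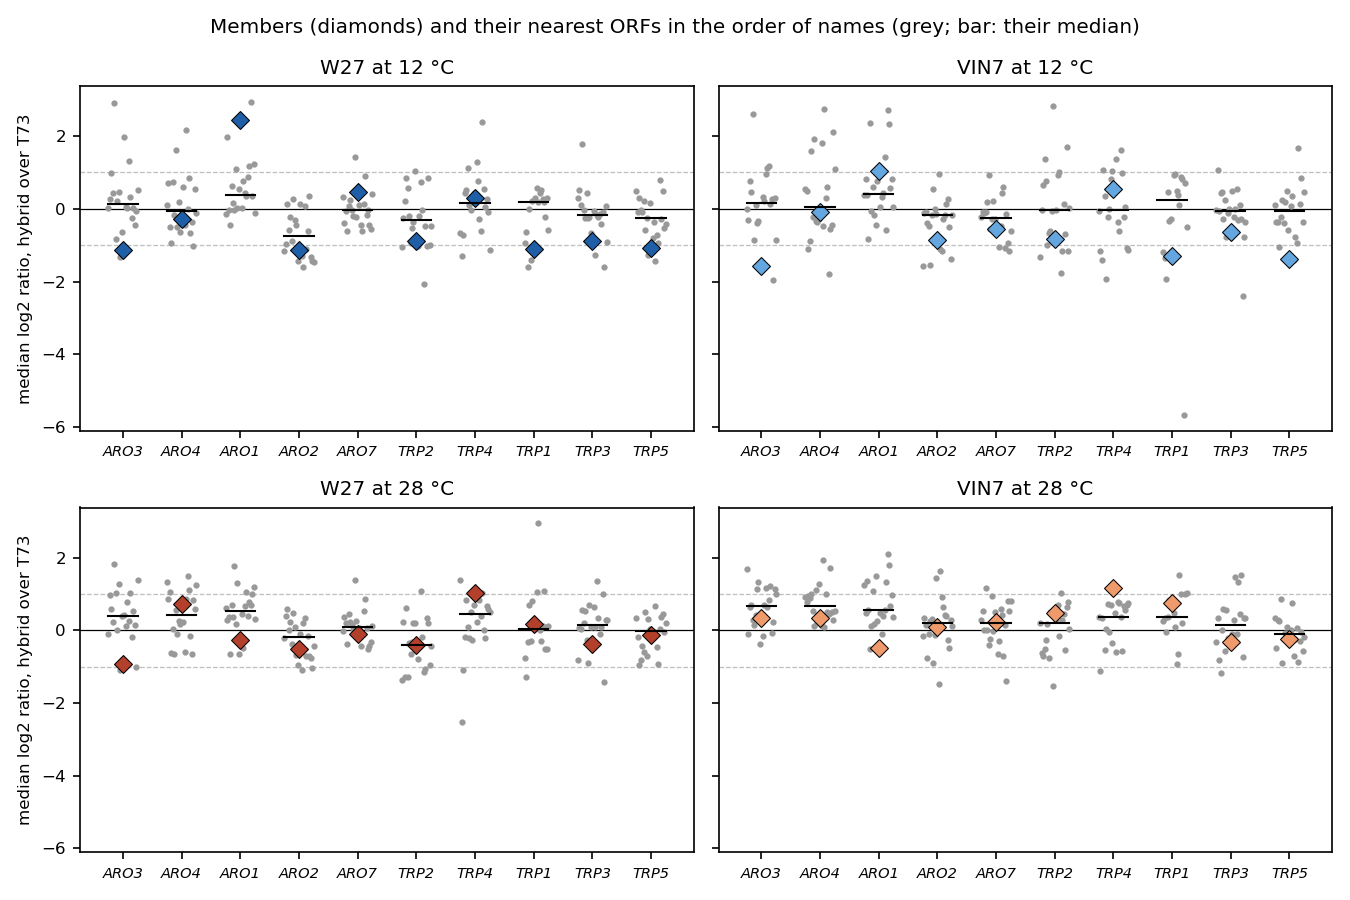
Median log2 ratio of hybrid over T73 over the arrays of a group (vertical axis) for each gene (diamond) and its nearest ORFs in the order of names (grey points, placed by their order, with a bar at their median). Dashed lines mark 2-fold. At 12 °C ARO1 lies above 19 of 20 neighbours in W27 and 16 of 20 in VIN7, and at 28 °C above 3 and 1.

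The 3 ORFs whose values were most like those of ARO1 over the 12 arrays were YDR517W, YKR082W and YHR070W, with root mean square differences of 0.44, 0.48 and 0.48. They were taken from 5550 ORFs with all 12 values, whose median difference from ARO1 was 1.76. Their medians in W27 at 12 °C were 1.91, 1.86 and 2.18 and in VIN7 at 12 °C 1.33, 1.85 and 1.88. The other 9 genes of the pathway were far from ARO1, at ranks from 1824 (ARO7) to 5071 (TRP1).

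Genes that act beside the pathway were described from 4 lists. The first holds 7 further enzymes that use chorismate, prephenate or aromatic amino acids (PHA2, TYR1, ARO8, ARO9, ARO10, ABZ1 and ABZ2). TYR1, for prephenate dehydrogenase of the tyrosine branch, was the one of the 7 called over both hybrids at 12 °C, against 10.4% of all ORFs. It was 0.64, 3.11 and 2.99 in W27 and 4.12, 3.07 and -0.25 in VIN7, so that 5 of 6 arrays lay above 0. Its estimate over both hybrids was 2.28 (SE 0.57, adjusted p = 0.0365, limma), and at 28 °C -0.15 (adjusted p = 0.931), which became 0.80 (adjusted p = 0.487) with replicate C of VIN7 turned. The call was lost without replicate B (adjusted p = 0.128) or C (0.149) of W27 and without A (0.136) or B (0.128) of VIN7, the same arrays as for ARO1. PHA2, for prephenate dehydratase of the phenylalanine branch, had medians of -0.03 in W27 and -0.21 in VIN7 at 12 °C. ABZ2, which takes part in 4-aminobenzoate synthesis from chorismate, was 2-fold down in VIN7 at 12 °C with all arrays below 0 (-1.28 ± 0.94, SD, n = 3). The aminotransferase and decarboxylase genes of the route to 2-phenylethanol, ARO8, ARO9 and ARO10, did not pass 2-fold at 12 °C in either hybrid. In VIN7 at 28 °C ARO10 was the 1 of the 7 list genes that was 2-fold up, against 11.3% of all ORFs. Its median there was 1.05, with 2 arrays above 0 and 1 below. With replicate C turned the median stayed at 1.05, and all 3 arrays lay above 0.

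The second list holds regulators and uptake (GCN4, ARO80, TAT1 and TAT2), of which none of 4 was called in the fit with all arrays weighted equally. Over both hybrids at 12 °C 10.4% of all ORFs were called. Before adjustment 2 of the 4 passed 0.05 there, against 31.7% of all ORFs. Of the 4 estimates 3 were above 0 and 1, that of GCN4, below. GCN4, the activator of amino acid biosynthesis genes in general control, was 0.16, -1.25 and -2.27 in W27 and -2.25, -2.13 and -1.25 in VIN7 at 12 °C. Of its 6 values 5 were below 0, and over both hybrids the estimate was -1.498 (SE 0.48, adjusted p = 0.0615, limma). GCN4 passed in 8 of 22 alternatives, among them array weights (adjusted p = 0.00671), only the arrays compared (0.0265), replicate C of VIN7 at 28 °C turned (0.0358) and that array left out (0.0167), and its adjusted p ran from 0.00671 to 0.231 over them. ARO80, the activator of the catabolic ARO9 and ARO10, had medians of 0.48 in W27 and -0.16 in VIN7 at 12 °C. The uptake genes TAT1 and TAT2 had medians of 0.69 and 0.17 in W27 and of 0.50 and 0.21 in VIN7 at 12 °C. TAT1 lay above 0 on all arrays of both hybrids at this temperature.

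The third list holds 11 genes of precursor supply (TKL1, TKL2, TAL1, ZWF1, RKI1, RPE1 and PRS1 to PRS5). At 12 °C 9 of these 11 had medians below 0 in W27 and 9 in VIN7, against 53.5% and 49.8% of all ORFs. Over both hybrids 1 of the 11 was called, against 10.4% of all ORFs. TKL2, the minor transketolase, was -1.69, -1.29 and -1.25 in W27 and -1.19, -2.42 and -3.31 in VIN7 at 12 °C. All 6 values lay below -1, and it fell over both hybrids, at -1.86 (SE 0.34, adjusted p = 0.0150, limma), and in VIN7 alone (-2.30, SE 0.47, adjusted p = 0.0493). The call over both hybrids was lost without replicate B (adjusted p = 0.0576) or C (0.0787) of W27 and without B of VIN7 (0.0692). At 28 °C its estimate was -0.13 (adjusted p = 0.895), or 0.37 (adjusted p = 0.626) with replicate C of VIN7 turned. TKL1, the major transketolase, had medians of -0.17 and -0.14 at 12 °C. PRS1, for a subunit of phosphoribosyl pyrophosphate synthetase, was 2-fold down with all arrays below 0 in VIN7 at 12 °C (-1.58 ± 0.38, SD, n = 3). TAL1, transaldolase, was so in W27 at 28 °C (-1.38 ± 0.34, SD, n = 3). In VIN7 at 28 °C RPE1 (1.09 ± 0.66, SD, n = 3) and PRS4 (1.52 ± 0.72, SD, n = 3) were 2-fold up, but with replicate C turned their medians were 0.39 and 0.72.

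The fourth list holds 11 genes of other amino acid pathways (HIS1, HIS4, HIS5, ARG1, ARG3, ARG4, LYS1, LYS9, LEU4, ILV2 and HOM3), set beside the aromatic genes. At 12 °C 10 of 11 had medians below 0 in W27 and 9 of 11 in VIN7, against the same 53.5% and 49.8% of all ORFs, with a median over the list of -0.77 and -0.82. These lay close to the -0.89 and -0.74 of the 10 aromatic genes. Passing 2-fold with 1 sign on all arrays were ILV2 in W27 (-1.04 ± 0.59, SD, n = 3), and HIS1 (-1.28 ± 0.76) and ARG4 (-1.15 ± 0.64) in VIN7. None of the 11 was called over both hybrids at 12 °C, against 10.4% of all ORFs, and their adjusted p were 0.0506 and above (limma). Before adjustment 7 passed 0.05, against 31.7% of all ORFs. At 28 °C 8 of 11 in W27 and 4 of 11 in VIN7 (turned, 8) had medians below 0, against 44.5% and 44.8% of all ORFs (turned, 47.5%).

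**Figure D4:**
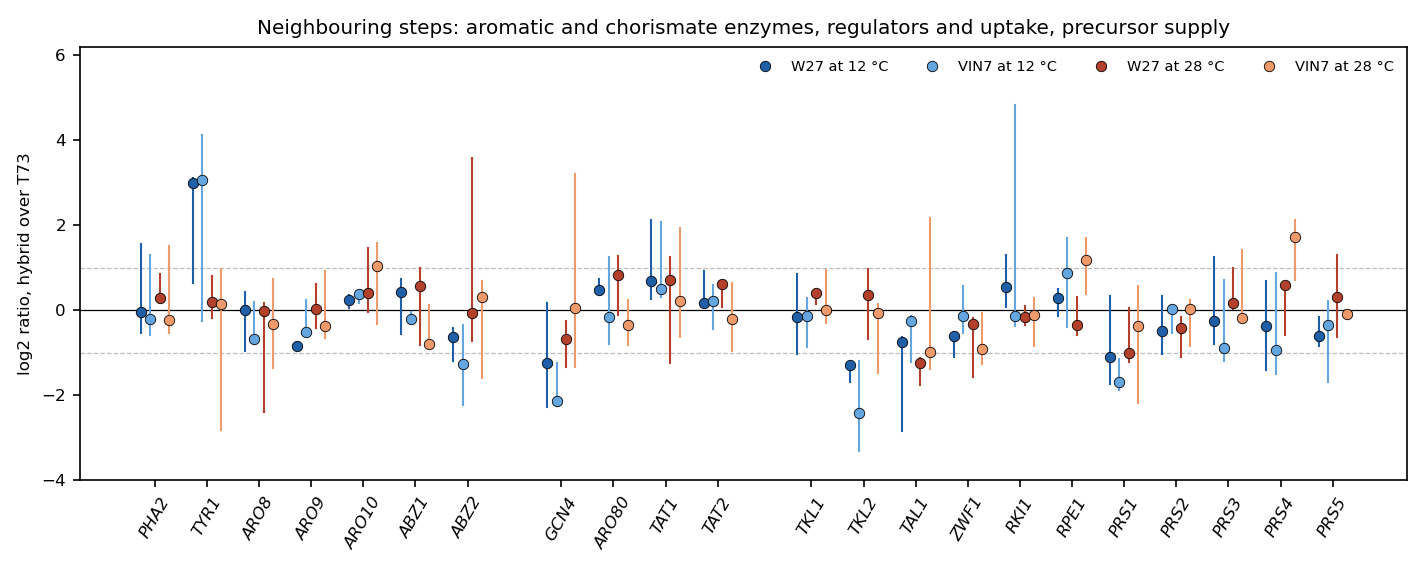
Log2 ratio of hybrid over T73 (vertical axis) for genes beside the pathway, from left to right further aromatic and chorismate enzymes, regulators and uptake, and precursor supply. Points are group medians, lines run from the lowest to the highest array of the group, and dashed lines mark 2-fold. TYR1 has medians of 2.99 and 3.07 at 12 °C, and TKL2 has medians of -1.29 and -2.42.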

How the data were processed

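Hybrid and T73 cDNA were hybridized together on 12 arrays of S288c ORFs. The authors scanned them with GenePix, subtracted the global background, normalized in Acuity, dropped unfound spots and corrected for print tips by hand. Deposited were log2 ratios, 1 per ORF and array, with direction not stated. The sign was turned, and 2 control features were left out. Signal over background is unknown, and precision rests on the number of arrays.

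Limma 3.58.1 (R 4.3.3, 4 group means, 12 arrays) was fitted over all ORFs, with Benjamini-Hochberg adjusted p under 0.05 as a call, and was tested on simulated data. The 2-fold rule used the median of at least 2 arrays. Figures were drawn with matplotlib 3.10.9 in Python 3.11.15. All 10 genes are named, list genes only where they passed 2-fold with 1 sign on all arrays of a group, and others beside them for their role. The naming of PHA2, TKL1, ARO80, TAT1, TAT2 and the ARO8 to ARO10 group was chosen after their values were seen. Symbols other than the 10 were paired with ORFs by standard nomenclature. The members and lists were chosen with earlier results of these data known.

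Replicate letters were taken to pair VIN7 arrays between temperatures only, from the data, as deviations of same-letter arrays correlated at 0.31, 0.22 and 0.57. Same-letter arrays of the other pairs of groups correlated between -0.44 and 0.17. The 0.57 is that of replicate C, whose array at 28 °C is of unsettled direction, so this basis of the pairing depends on that direction. A fit of the VIN7 arrays with this replicate block called 0 of 5716 ORFs, and ARO1 had an adjusted p of 0.0747. An exact test with VIN7 arrays exchanged within letters was added after seeing the data. Alternatives covered the summary, fold threshold, centring, scaling, clipping, local trend, array weights, prior, filter, the sign of the doubtful VIN7 array at 28 °C and leaving out each array. No sequences were used here.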

Additional observations from a re-analysis of the deposited data

Results flagged for a closer look

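ARO1 moved in opposite directions at the temperatures in VIN7, with all 3 arrays above T73 at 12 °C and all 3 below it at 28 °C. The mean log2 ratio at 12 °C minus that at 28 °C was 2.23. In limma this difference had an adjusted p of 0.178, and of 0.0747 in the fit of the VIN7 arrays with the replicate block, so it did not pass. After replicate C at 28 °C was turned, the difference was 0.75, and 1 of the 3 arrays at 28 °C lay above T73.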

How the results depend on the processing

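Of the limma results, the number of genes called over both hybrids at 12 °C was 6 with array weights, 2 with only the arrays compared and 0 to 4 with each array left out. With array weights W27 at 12 °C had 1 call (ARO1, adjusted p = 0.0306), but the share of all ORFs called there with weights was not computed. The ARO1 estimate in W27 at 28 °C turned from -0.22 to 0.0903 with the weights. It ran from -0.57 to 0.11 with each array left out. With replicate C of VIN7 at 28 °C turned, ARO1 changed sign in VIN7 at 28 °C (0.50), in both hybrids at 28 °C (0.14) and in VIN7 minus W27 at 28 °C (0.72). The replicate block over all 12 arrays changed no call, and ARO1 over both hybrids at 12 °C had an adjusted p of 0.0342 with it. Over its alternatives that adjusted p ran from 0.00476 to 0.149.

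By the 2-fold rule, the mean in place of the median gave 2 genes down in W27 and 2 up in VIN7 at 12 °C, and 0 up in W27 at 28 °C. A 1.5-fold threshold gave 6 down in VIN7 at 12 °C, and at 28 °C 2 up and 1 down in W27 and 2 up in VIN7. A 4-fold threshold left 0 in each of these groups, except ARO1 up in W27 at 12 °C. Recentring gave 1 down in W27 at 12 °C, and 0 up and 1 down in W27 at 28 °C. Recentring with scaling gave 1 down in W27 at 12 °C and at 28 °C, 0 up and 0 down in VIN7 at 12 °C and 0 up in VIN7 at 28 °C. Removal of the local trend gave 1 down in W27 at both temperatures, 0 up in VIN7 at both and 1 down in VIN7 at 28 °C. Turning replicate C gave 0 up in VIN7 at 28 °C. With each array left out, W27 at 12 °C had 0 to 5 down, VIN7 at 12 °C 0 to 3 up and 1 to 5 down, W27 at 28 °C 0 to 2 up and 0 to 1 down, and VIN7 at 28 °C 0 to 4 up and 0 to 1 down. Apart from turning, the shares of all ORFs under these settings were not computed. The counts therefore do not show whether these genes differed from the background there.

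In the comparison of temperatures, ARO4 no longer passed after recentring (-0.81), scaling (-0.58), removal of the local trend (-0.63) and turning (-0.34), and ran from -1.11 to -0.71 with each array left out. TRP1 no longer passed after scaling (-0.90), removal of the trend (-1.03) and turning (-1.07), and ran from -1.84 to -1.19 with each array left out. ARO1 no longer passed after turning (1.38). TRP5 (-0.98) passed with the replicate block in VIN7 and with some arrays left out, within -1.16 and -0.67. Genes that had not passed changed sign, namely ARO7 after recentring (0.0452), scaling (0.00717) and removal of the trend (0.12), and TRP4 after removal of the trend (0.0936) and turning (0.0262). With each array left out ARO7 ran from -0.36 to 0.15, TRP4 from -0.82 to 0.12 and ARO2 from -1.16 to 0.18. The causes were not tested. The limits are 3 arrays a group, no dye swap, 1 array of unsettled direction and no measure of signal over background.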
